A study of Mus musculus with 14 samples.

Results

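Calprotectin and the receptors for granulocyte growth factors were examined in sorted mouse bone marrow cells. The members were all probe sets on the array whose annotated gene symbol is S100a8, S100a9, Csf3r, Csf2ra, Csf2rb or Csf2rb2. All 6 genes are among the 12393 genes measured, with 7 of the 22626 probe sets tested, 1 for each gene except Csf2ra, which has 2. A further probe set is annotated to both Csf2rb and Csf2rb2 and is given separately. The cells were bone marrow cells positive for Sca1 and negative for cKit, sorted by flow cytometry and hybridised 1 sample per array, and all 3 groups share that sort. The Instigator group (n = 5 arrays) came from mice with a BPLER tumour, a transformed human breast epithelial line whose tumours promote the growth of other tumours at a distance. The Non-instigator group (n = 5) came from mice with a PC3 tumour of matched size, PC3 being a human prostate carcinoma line, and the Matrigel group (n = 4) from mice given the basement membrane gel alone. Each tumour group stands for 1 cell line, so the line and its instigating activity cannot be told apart, and the labels state neither strain nor age of the hosts. Separate mice for separate arrays are not stated, so p-values cover the spread between these arrays alone, part or all of which may be technical. All values are log2 of the deposited intensity, a scale on which a difference of 1 is a doubling.

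S100a8 and S100a9 are small calcium-binding proteins that pair to form calprotectin, which fills the cytoplasm of neutrophils, chelates zinc and manganese, and when released acts on Tlr4 and on Ager, the receptor for advanced glycation end products. Granulocyte production in marrow is driven by G-CSF, which acts through Csf3r, and by GM-CSF, whose receptor joins the ligand-binding alpha chain Csf2ra to the signalling beta chain Csf2rb. Csf2rb is shared with the receptors for interleukin 3 and interleukin 5. Mice carry a second beta chain gene, Csf2rb2, whose product serves the interleukin 3 receptor.

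S100a8 and S100a9 are neighbours on chromosome 3, and Csf2rb and Csf2rb2 are neighbours on chromosome 15. RefSeq promoter windows, from 250 bases before to 50 bases after the annotated start in GRCm38.p6, were found for 5 of the 6 genes, Csf2rb being the one without an entry. The windows of the calprotectin genes are shown because these are the subunits whose signals are set against each other below. S100a8 lies at chr3:90668821-90669120 on the plus strand and S100a9 at chr3:90695672-90695971 on the minus strand, and both are written 5′ to 3′ along the gene. Capitals mark matches on either strand to TATAAA (the TATA box), TTNNGNAA (the C/EBP family) and GAGGAA (PU.1).
S100a8: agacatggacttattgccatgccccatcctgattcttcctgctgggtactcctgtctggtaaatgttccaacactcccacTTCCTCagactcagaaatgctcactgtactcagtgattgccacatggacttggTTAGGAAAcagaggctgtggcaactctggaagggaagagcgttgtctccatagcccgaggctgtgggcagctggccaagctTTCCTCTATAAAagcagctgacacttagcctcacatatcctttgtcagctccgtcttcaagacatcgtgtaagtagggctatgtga
S100a9: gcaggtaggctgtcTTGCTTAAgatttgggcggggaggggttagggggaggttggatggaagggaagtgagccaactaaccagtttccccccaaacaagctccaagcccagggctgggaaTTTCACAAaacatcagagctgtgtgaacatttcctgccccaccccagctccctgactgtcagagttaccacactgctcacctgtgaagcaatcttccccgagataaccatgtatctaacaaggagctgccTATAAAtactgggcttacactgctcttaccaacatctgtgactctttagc
Both windows hold 1 TATAAA, which begins 30 bases before the annotated start of S100a8 and at the annotated start itself in S100a9. It is a run of letters found in 13.6% of the 32851 promoter windows of that length, and the Csf3r, Csf2ra and Csf2rb2 windows hold none. TTNNGNAA matches the S100a8 window at 1 place and the S100a9 window at 2, and it is found in 40.7% of all windows. GAGGAA matches the S100a8 window at 2 places and the S100a9 window at 0, against 28.3% of all windows with at least 1 match. The Csf3r window holds 1 GAGGAA, 86 bases before the start, and the Csf2ra and Csf2rb2 windows hold 2 each. TTNNGNAA matches the Csf2rb2 window at 2 places, the Csf2ra window at 1 and the Csf3r window at 0. TTCNNNGAA, the form bound by STAT factors, was also searched; it is found in 8.30% of all windows and among these 5 genes in Csf2rb2 alone. A match describes letters in a window and is not evidence of binding.

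Instigator 4 and Matrigel 3 stood apart from the rest. The control sets for transcript integrity had low 5′ signal on Instigator 4. For beta-actin the 5′ set was -3.41 relative to the 3′ set there and -0.81 to -0.51 elsewhere (13 arrays), and for Gapdh -4.03 there and -1.16 to -0.73 elsewhere. Matrigel 3 had the highest median intensity, 145, where the other arrays had 119 to 129. The description of Instigator 5 names PC3, while its title and source name the BPLER tumour, and it was kept as Instigator. The receptor gene Kit, whose protein the sort selected against, averaged 7.58 ± 0.22 in Instigator, 7.37 ± 0.45 in Non-instigator and 7.52 ± 0.37 in Matrigel arrays (SD, n = 5, 5 and 4). The median level over all probe sets was 6.99, so Kit lay above it and its values do not check the cKit side of the sort. No probe set is named for the Sca1 gene Ly6a alone, so that side was not checked either.

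S100a8 lay higher in Instigator than in Matrigel arrays by a small amount that did not pass the test over all probe sets. Its log2 intensity was 13.24, 13.30, 13.33, 13.46 and 13.29 in the 5 Instigator arrays. It was 13.23, 13.16, 13.25, 13.30 and 13.25 in the Non-instigator arrays and 13.26, 13.22, 12.96 and 13.07 in the Matrigel arrays. Instigator 4 was the highest and Matrigel 3 the lowest of the 14 arrays, and 4 of 5 Instigator arrays lay above the highest Matrigel array. The difference of Instigator from Matrigel was 0.20 (SE 0.08, 95% confidence interval 0.03 to 0.36, 1.15-fold), with an unadjusted limma p of 0.0257 and an adjusted p of 0.443. Non-instigator arrays differed from Matrigel by 0.11 (SE 0.08, 95% confidence interval -0.06 to 0.28, limma adjusted p = 0.986). Instigator differed from Non-instigator by 0.08 (SE 0.07, 95% confidence interval -0.08 to 0.24, limma adjusted p = 0.843). Without Instigator 4 and Matrigel 3, the difference of Instigator from Matrigel was 0.11, and without Matrigel 3 that of Non-instigator from Matrigel was 0.058. The S100a8 probe set carries the s_at suffix, which marks sets whose probes match more than 1 transcript.

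S100a9, the partner subunit, had nearly the same level in the 3 groups. Its log2 intensity was 13.56, 13.75, 13.74, 13.84 and 13.73 in Instigator arrays. It was 13.61, 13.60, 13.63, 13.69 and 13.70 in Non-instigator arrays and 13.68, 13.61, 13.74 and 13.52 in Matrigel arrays. Instigator 4 was again the highest array, 4 of 5 Instigator arrays lay above every Non-instigator array, and Instigator 1 lay below all of them. Instigator differed from Matrigel by 0.08 (SE 0.08, 95% confidence interval -0.08 to 0.25, limma adjusted p = 0.674) and from Non-instigator by 0.08 (SE 0.07, 95% confidence interval -0.07 to 0.23, limma adjusted p = 0.841). Non-instigator arrays differed from Matrigel by 0.0042 (SE 0.08, 95% confidence interval -0.16 to 0.17, limma adjusted p = 1.0). With each array centred on its median, the difference of Instigator from Matrigel was 0.16. The S100a9 signal lay within 0.18 of the highest value on every array and was the highest value itself on Instigator 4. The S100a8 signal lay 0.38 to 0.85 below the highest value of its array. Whether the scale was compressed at these levels was not tested.

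**Figure D1:**
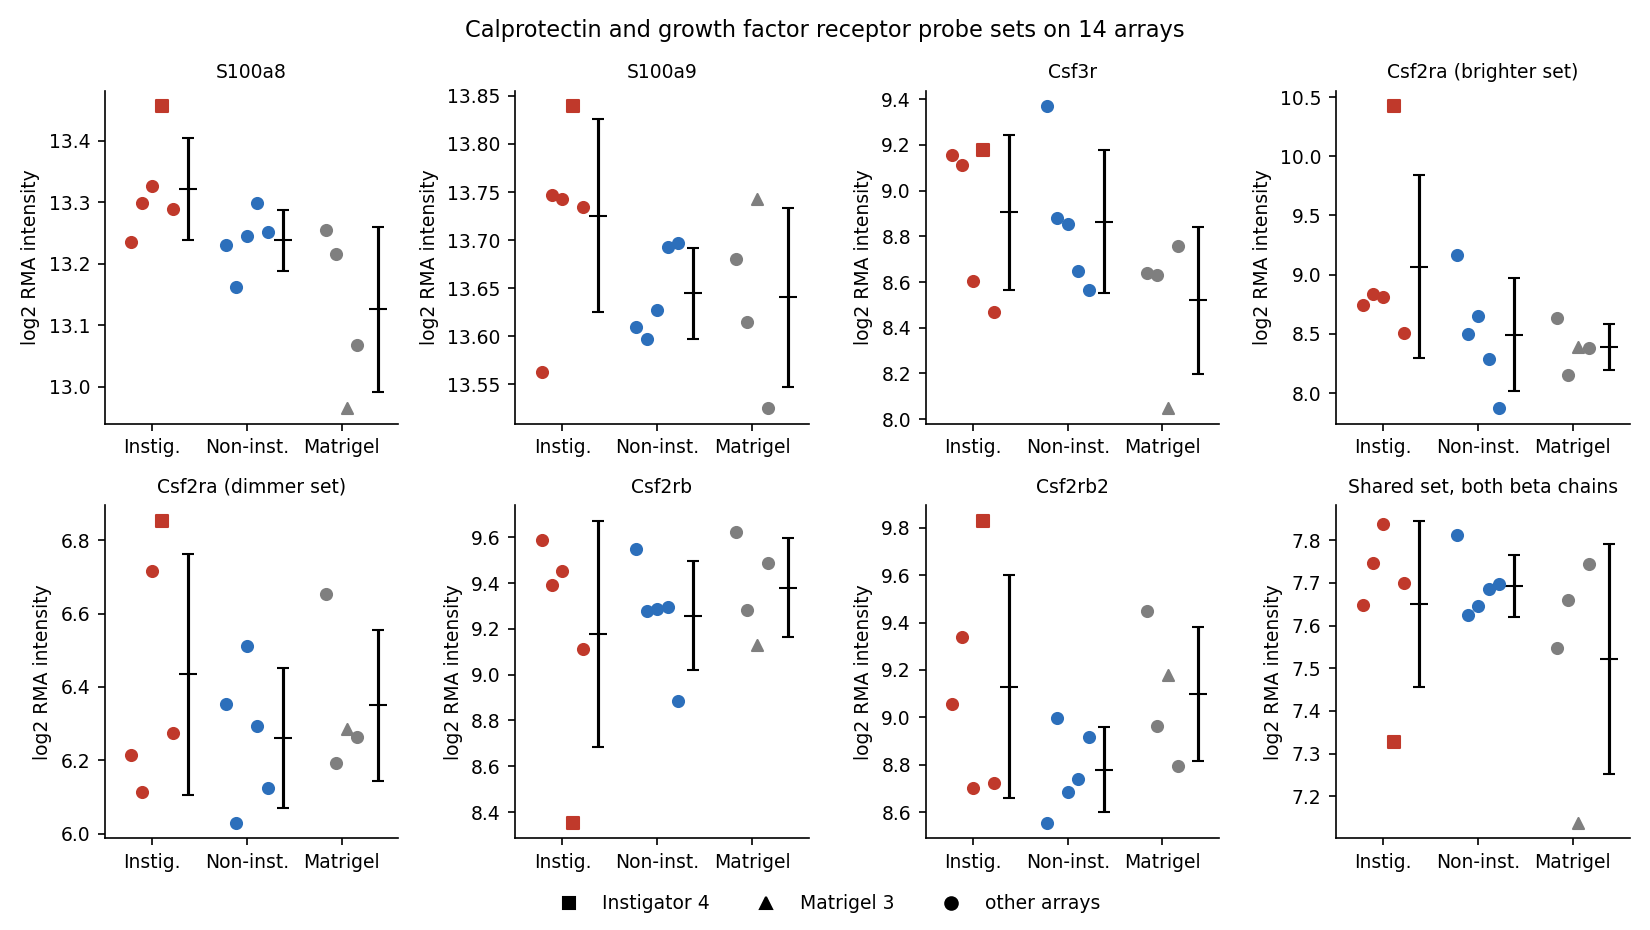
Log2 RMA intensity (y axis, a separate range in each panel) of the 7 probe sets of the 6 genes and of the probe set shared by both beta chains, with 1 point per array in the Instigator (red), Non-instigator (blue) and Matrigel (grey) groups and the mean with SD beside them. Instigator 4 (square) is the highest array for S100a8, S100a9, both Csf2ra sets and Csf2rb2 and the lowest for Csf2rb, and Matrigel 3 (triangle) is the lowest for S100a8 and Csf3r.

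Csf3r, the receptor through which G-CSF drives neutrophil production, lay higher in both tumour groups than in Matrigel arrays, but the groups overlapped. Its log2 intensity in Instigator arrays was 9.16, 9.11, 8.61, 9.18 and 8.47. It was 9.37, 8.88, 8.85, 8.65 and 8.56 in Non-instigator arrays and 8.64, 8.63, 8.05 and 8.76 in Matrigel arrays. In each tumour group 3 of 5 arrays lay above the highest Matrigel array, while Instigator 3, Instigator 5, Non-instigator 4 and Non-instigator 5 lay within the Matrigel range. Instigator differed from Matrigel by 0.38 (SE 0.20, 95% confidence interval -0.04 to 0.81, 1.31-fold, limma adjusted p = 0.516). Non-instigator differed from Matrigel by 0.34 (SE 0.20, 95% confidence interval -0.08 to 0.77, 1.27-fold, limma adjusted p = 0.986), and without Non-instigator 1 by 0.22. These comparisons share the Matrigel arrays, of which Matrigel 3 was the lowest, and without it the differences were 0.23 and 0.19. Between the tumour groups the difference was 0.04 (SE 0.19, 95% confidence interval -0.36 to 0.44, limma adjusted p = 0.974).

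Csf2ra, the alpha chain that binds GM-CSF, varied most between arrays, and 1 Instigator array stood far above the rest. At its brighter probe set it was 8.75, 8.84, 8.82, 10.43 and 8.51 in Instigator arrays. It was 9.16, 8.50, 8.65, 8.28 and 7.87 in Non-instigator arrays and 8.64, 8.15, 8.39 and 8.38 in Matrigel arrays. Instigator 4, at 10.43, lay far above the other 13 arrays, and 4 of 5 Instigator arrays lay above every Matrigel array. The difference of Instigator from Matrigel was 0.68 (SE 0.33, 95% confidence interval -0.02 to 1.38, 1.60-fold, limma adjusted p = 0.499), and without Instigator 4 it was 0.34. The difference from Non-instigator was 0.57 (SE 0.31, 95% confidence interval -0.09 to 1.24, limma adjusted p = 0.813), and without Instigator 4 it was 0.23. Non-instigator differed from Matrigel by 0.10 (SE 0.33, 95% confidence interval -0.60 to 0.80, limma adjusted p = 0.989), a value that ran from -0.07 to 0.26 as 1 array was left out at a time. At the dimmer probe set, whose values ran from 6.03 to 6.85, Instigator 4 was also the highest array. There Instigator differed from Matrigel by 0.08 (95% confidence interval -0.25 to 0.42, limma adjusted p = 0.849), so the sets gave differences of unequal size.

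Marker genes of monocytes and macrophages, cells that also carry the GM-CSF receptor, stood high on the same array. Their mean log2 intensity over 11 measured genes was 8.84 on Instigator 4, against 8.12 to 8.44 on the other 13 arrays, and by group the means ran from 8.17 to 8.84 in Instigator, 8.12 to 8.24 in Non-instigator and 8.12 to 8.44 in Matrigel arrays. Other gene lists were also extreme on Instigator 4. Eosinophil markers were highest there, at 8.29 against 7.16 to 8.23 elsewhere, as were other cytokine receptors (8.35) and receptor signalling genes (9.24). The other S100 genes (7.47), megakaryocyte markers (5.55), calprotectin receptor and oxidase genes (8.31) and growth factor targets (9.08) were lowest there. The part of any of these cells, and of the control values of Instigator 4, in the Csf2ra value was not tested. In a sorted population measured in bulk, more cells of a type and more RNA per cell cannot be told apart.

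Csf2rb, the signalling beta chain shared by the GM-CSF, interleukin 3 and interleukin 5 receptors, went the other way on Instigator 4. It was 9.59, 9.39, 9.45, 8.35 and 9.11 in Instigator arrays. It was 9.55, 9.28, 9.28, 9.29 and 8.88 in Non-instigator arrays and 9.62, 9.28, 9.13 and 9.49 in Matrigel arrays. Instigator 4 was the lowest of the 14 arrays and the groups overlapped. Instigator differed from Matrigel by -0.20 (SE 0.21, 95% confidence interval -0.65 to 0.25, limma adjusted p = 0.721), and without Instigator 4 by 0.01. Non-instigator differed from Matrigel by -0.12 (SE 0.21, 95% confidence interval -0.57 to 0.33, limma adjusted p = 0.986), and Instigator from Non-instigator by -0.08 (SE 0.20, 95% confidence interval -0.50 to 0.35, limma adjusted p = 0.953). The last of these was 0.13 without Instigator 4.

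Csf2rb2, the beta chain of the interleukin 3 receptor, lay lower in Non-instigator arrays than in both other groups, and the groups overlapped. Its log2 intensity was 9.06, 9.34, 8.70, 9.83 and 8.72 in Instigator arrays. It was 8.55, 9.0, 8.69, 8.74 and 8.92 in Non-instigator arrays and 9.45, 8.96, 9.18 and 8.80 in Matrigel arrays. Of the Non-instigator arrays, 3 of 5 lay below the lowest Matrigel array and 0 lay above the Matrigel median. Non-instigator differed from Matrigel by -0.32 (SE 0.21, 95% confidence interval -0.76 to 0.12, 0.80-fold, limma adjusted p = 0.986), and without Matrigel 1 by -0.20. Instigator differed from Non-instigator by 0.35 (SE 0.19, 95% confidence interval -0.06 to 0.76, limma adjusted p = 0.813), a value that was 0.18 without Instigator 4. Instigator differed from Matrigel by 0.03 (SE 0.21, 95% confidence interval -0.41 to 0.47, limma adjusted p = 0.960), and by -0.14 without Instigator 4.

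The probe set annotated to both beta chains followed neither gene's own set on every array. It averaged 7.65 ± 0.19 in Instigator, 7.69 ± 0.07 in Non-instigator and 7.52 ± 0.27 in Matrigel arrays (SD, n = 5, 5 and 4). Its lowest arrays were Matrigel 3 at 7.14 and Instigator 4 at 7.33. Its differences were 0.13 for Instigator against Matrigel, 0.17 for Non-instigator against Matrigel and -0.04 for Instigator against Non-instigator, with limma adjusted p of 0.697, 0.986 and 0.958. Without Matrigel 3 the differences from Matrigel were 0.00087 for Instigator and 0.042 for Non-instigator, and without Instigator 4 that of Instigator was 0.21. The 2 genes are near-identical paralogues, and signal may be shared between their probe sets.

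Set against all probe sets, the calprotectin and receptor genes were not called in any comparison. For Instigator against Matrigel 0 of 7 member probe sets passed an adjusted p under 0.05 in limma's test, as did 0% of all probe sets, and the other comparisons gave the same counts. At an unadjusted p under 0.05, 1 of 7 was reached for Instigator against Matrigel (S100a8), where 10.3% of all probe sets were. The counts were 0 of 7 for Non-instigator against Matrigel, against 2.11% of all probe sets, and 0 of 7 for Instigator against Non-instigator, against 5.6%. The difference was above 0 at 6 of 7 for Instigator against Matrigel, at 4 of 7 for Non-instigator against Matrigel and at 6 of 7 between the tumour groups, where 42.8%, 36.2% and 55.8% of all probe sets were. No member separated any of these pairs of groups without overlap. Among all probe sets the Instigator arrays lay entirely above the Matrigel arrays in 1.02% of cases and entirely below in 1.68%. The same shares were 0.287% and 0.61% for Non-instigator against Matrigel, and for Instigator against Non-instigator 0.751% and 0.446%. Over the whole table the smallest adjusted p was 0.439 for Instigator against Matrigel, 0.986 for Non-instigator against Matrigel and 0.813 for Instigator against Non-instigator.

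**Figure D2:**
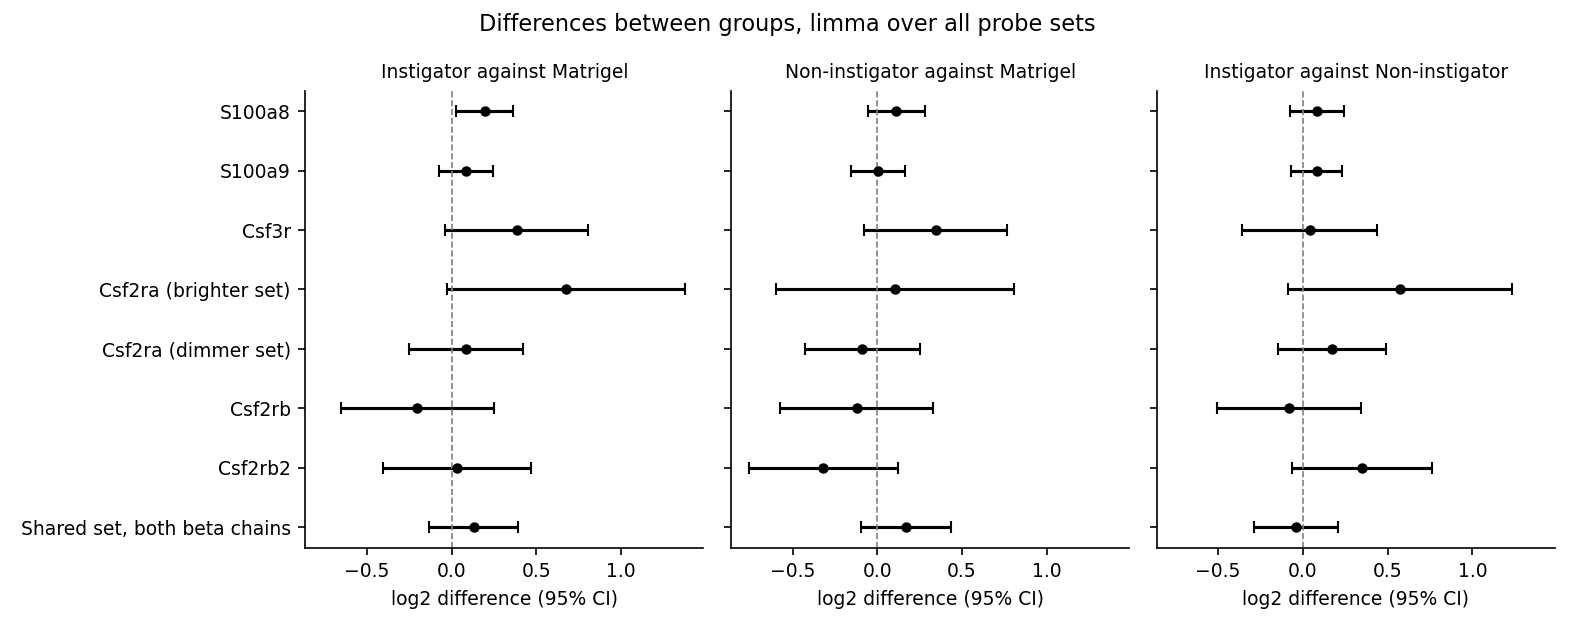
Log2 difference between groups (x axis) with its 95% confidence interval from limma for each of the 7 probe sets and the probe set shared by both beta chains, with 1 panel for each tumour group against Matrigel and 1 for Instigator against Non-instigator. The intervals of S100a8 and S100a9 are the narrowest, those of the brighter Csf2ra set the widest (-0.02 to 1.38 against Matrigel in the Instigator group), and S100a8 in Instigator against Matrigel is the one interval that leaves out 0.

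The members differed in their spread between arrays. The within-group SD was 0.09 for S100a8 and 0.08 for S100a9, below the median of 0.19 over all probe sets. It was 0.25 for the dimmer Csf2ra set, 0.32 for Csf3r, 0.34 for Csf2rb2, 0.35 for Csf2rb and 0.56 for the brighter Csf2ra set, all above that median. The median is not matched for intensity: the median level of all probe sets was 6.99, while S100a8 averaged 13.24 and S100a9 13.67. The part of their place near the top of the scale in their small spread was not tested. Over the 14 arrays S100a9 spanned 0.32 and S100a8 spanned 0.49, while Csf3r spanned 1.32 and the brighter Csf2ra set 2.56. Instigator 4 was the highest array at 5 of the 7 member probe sets and the lowest at 1. The share of all probe sets at which it was highest or lowest was not counted. It also stood apart over all probe sets. On the first principal component, the axis of largest variation between arrays (35.4% of the variance), it scored 73.8, against -19.6 to 8.0 elsewhere. The standard errors of the group differences were 0.15 to 0.33 for the receptor probe sets and 0.07 to 0.08 for the calprotectin genes.

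Members with related roles were compared across arrays in 4 relations, with p adjusted over the 4. S100a8 and S100a9 had a Pearson r of 0.50 (permutation p = 0.0661, adjusted 0.145) and a Spearman rho of 0.67 (permutation p = 0.0112, adjusted 0.0450) over 14 arrays. Instigator 4 and Matrigel 3 were the 2 arrays farthest from the median of S100a8, and without them r was 0.86 (permutation p = 8e-05, adjusted 0.00032) over 12 arrays. On Matrigel 3 S100a8 was the lowest of all arrays while S100a9 was among the highest, at 13.74. With deviations from the group means, r was 0.35 over 14 arrays (permutation p = 0.217, adjusted 0.217) and 0.82 over the 12 arrays (permutation p = 0.00142, adjusted 0.00284), the last chosen after seeing the data. With each array centred on its median, r over 14 arrays was 0.81 (permutation p = 0.00136, adjusted 0.00544). Both signals lie near the top of the scale and share the scaling of their array, whose part in these values was not tested.

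The GM-CSF receptor chains gave a relation whose sign turned when Instigator 4 was left out together with another array. Csf2ra and Csf2rb had r = -0.44 over 14 arrays (permutation p = 0.109, adjusted 0.145; rho = 0.26, permutation p = 0.376, adjusted 0.502). Without the arrays farthest from the Csf2ra median, Instigator 4 and Non-instigator 5, r was 0.54 (permutation p = 0.0701, adjusted 0.140). Without Instigator 4 and Matrigel 3 it was 0.71 (permutation p = 0.0104, adjusted 0.0207). Csf2rb and Csf2rb2 had r = -0.48 (permutation p = 0.0855, adjusted 0.145; rho = -0.13, permutation p = 0.671, adjusted 0.671), and without Instigator 4 and Non-instigator 5 r was 0.16. Csf3r and S100a9, a receptor and a product of the same lineage, had r = -0.20 (permutation p = 0.487, adjusted 0.487; rho = -0.28, permutation p = 0.334, adjusted 0.502), and without Matrigel 3 and Non-instigator 1 r was 0.04.

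**Figure D3:**
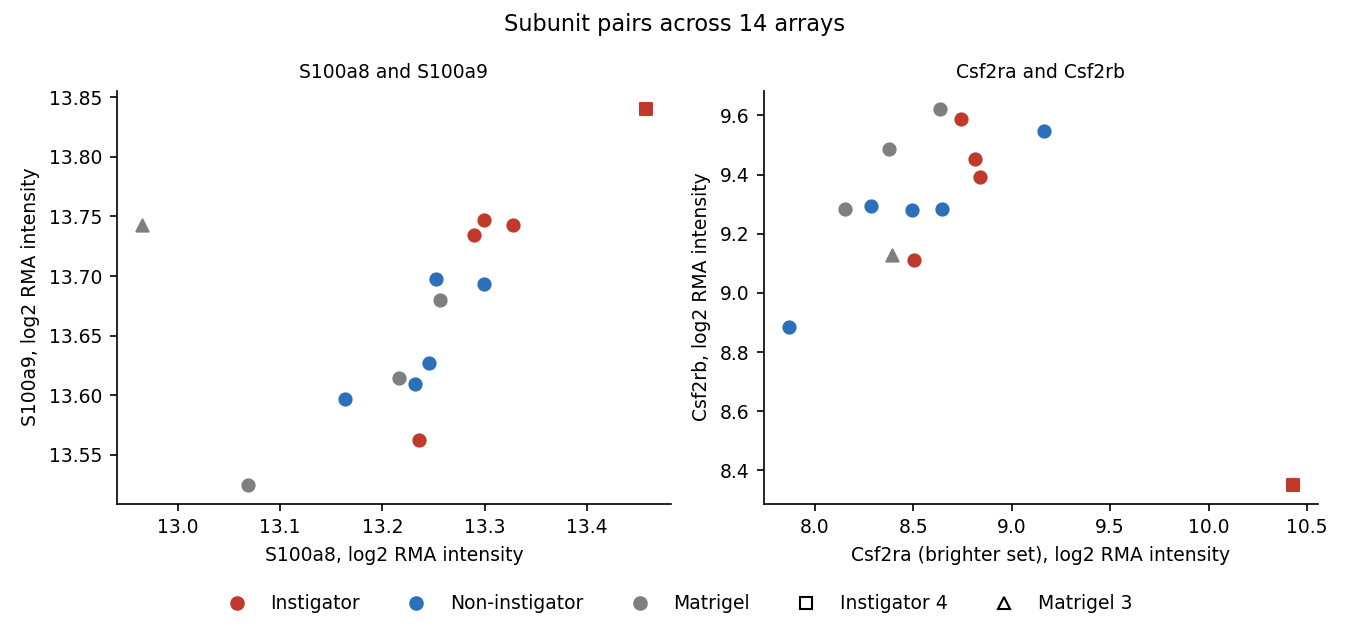
Log2 RMA intensity of S100a9 against S100a8 (left) and of Csf2rb against the brighter Csf2ra set (right), with 1 point per array, coloured by group, and Instigator 4 as a square and Matrigel 3 as a triangle. In the left panel Matrigel 3 lies off the rising line of the other arrays, and in the right panel Instigator 4 lies alone at a Csf2ra value of 10.43 and a Csf2rb value of 8.35.

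The genes most like each member were ranked by Pearson r over the 12 arrays without Instigator 4 and Matrigel 3, a description with no test. Taking the highest r among all other genes on so few arrays favours large values, so their size alone does not show a relation. For S100a9 they were Map3k12 (r = 0.95), Msn (0.91), Actb (0.91), Hbb-b2 (0.90) and Ywhaz (0.89), and over all 14 arrays these had r of 0.62 to 0.95. For S100a8 they were Ybx3 (r = 0.89), Slc35a5 (0.89), Eif5 (0.88), Map3k12 (0.88) and Rps29 (0.88), of which Eif5 and Rps29 had r of 0.92 and 0.95 over 14 arrays, Ybx3 had 0.66, Map3k12 had 0.35 and Slc35a5 had 0.03. Map3k12 was on both lists, and several of the others, such as beta-actin (Actb), the ribosomal protein gene Rps29 and the translation factor Eif5, are active in all cells. For Csf3r the list was Osbpl2 (r = 0.91), Anln (0.90), Fam160a2 (0.89), Ncf1 (0.89) and Armc1 (0.89). Over 14 arrays these had r of 0.43 for Osbpl2, 0.82 for Anln, 0.16 for Fam160a2, 0.88 for Ncf1, a cytosolic subunit of the phagocyte oxidase, and 0.56 for Armc1. For Csf2rb the list was Prmt3 (r = 0.94), Vamp3 (0.93), Pimreg (0.92), Csgalnact2 (0.90) and Mmp19 (0.90), with r over 14 arrays of -0.43 for Prmt3, 0.84 for Vamp3, 0.63 for Pimreg, 0.15 for Csgalnact2 and 0.93 for Mmp19.

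The rest of the pathway was described with lists of ligands, receptors, signalling, feedback, targets and transcription factors. In each comparison 0 genes of these lists passed limma's test over all probe sets, so they are given by counts and medians. Over all 12393 genes the median difference was -0.02 for Instigator against Matrigel, -0.04 for Non-instigator against Matrigel and 0.03 for Instigator against Non-instigator. The shares of all genes that were higher were 45.9%, 38.3% and 58.2% in the same order, and the counts below are to be read beside them.

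Of 6 measured ligand genes, 6 were lower in Instigator than in Matrigel arrays, by a median of -0.08, and 6 were lower in Non-instigator than in Matrigel arrays (median -0.11). These counts rest on Matrigel 3: without it 4 of 6 were higher in Instigator than in Matrigel arrays (median 0.013), and 4 of 6 in Non-instigator than in Matrigel arrays (median 0.024). Csf3, which encodes G-CSF, averaged 4.05 ± 0.14 in Instigator, 3.96 ± 0.06 in Non-instigator and 4.12 ± 0.16 in Matrigel arrays (SD, n = 5, 5 and 4). Csf2, which encodes GM-CSF, averaged 5.79 ± 0.20, 5.74 ± 0.19 and 5.88 ± 0.40 in the same order of groups. Csf3 and Csf2 lay below the median level of 6.99 over all probe sets, as did Il3, Il5 and Kitl. Whether these signals were above background was not tested. Between the tumour groups 3 of 6 ligands were higher, with a median of 0.0038.

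Among 9 other cytokine receptors, 5 were higher in Instigator than in Matrigel arrays (median 0.03), 5 were higher in Non-instigator than in Matrigel arrays (median 0.04), and 3 between the tumour groups (Instigator over Non-instigator, median -0.04). Csf1r, the receptor for M-CSF on monocytes and macrophages, averaged 10.88 ± 0.79 in Instigator, 10.04 ± 0.34 in Non-instigator and 10.21 ± 0.25 in Matrigel arrays. It differed by 0.68 between Instigator and Matrigel (SE 0.32, limma adjusted p = 0.485) and by 0.85 between Instigator and Non-instigator (SE 0.30, limma adjusted p = 0.813). Il3ra, the alpha chain that pairs with either beta chain to bind interleukin 3, differed by 0.03 between Instigator and Matrigel (SE 0.11). Il5ra, the eosinophil receptor that uses Csf2rb, differed by 0.35 between Non-instigator and Matrigel (SE 0.21, limma adjusted p = 0.986). Without Instigator 4 the Csf1r differences were 0.33 and 0.50, and without Matrigel 3 that of Il5ra was 0.084. Between the tumour groups, 5 of the 9 receptors were higher in Instigator arrays without Instigator 4 (median 0.031).

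Signalling genes below the receptors had medians close to 0. Of 19 measured, 13 were higher in Instigator than in Matrigel arrays, with a median of 0.10, 12 in Non-instigator than in Matrigel arrays (median 0.07), and 10 in Instigator than in Non-instigator arrays (median 0.03). Pik3r1, the regulatory subunit of PI3 kinase, differed by -0.31 (SE 0.16) between Instigator and Matrigel and by -0.42 (SE 0.15, limma adjusted p = 0.813) between Instigator and Non-instigator. The kinase Jak2 differed by -0.01 between Instigator and Matrigel (SE 0.14), and the factor Stat3, activated by Csf3r, by -0.06 (SE 0.09). Feedback genes had 2 of 9 higher in Instigator than in Matrigel arrays (median -0.07), 6 of 9 in Non-instigator than in Matrigel arrays (median 0.04) and 1 of 9 in Instigator than in Non-instigator arrays (median -0.09). Cbl, a ubiquitin ligase that ends receptor signalling, averaged 8.85 ± 0.98 in Instigator and 10.07 ± 0.23 in Matrigel arrays, a difference of -1.22 (SE 0.40, limma adjusted p = 0.439). Socs3, which is induced by G-CSF and limits it, differed by 0.44 between Instigator and Matrigel (SE 0.32, limma adjusted p = 0.619) and by 0.29 between Non-instigator and Matrigel (SE 0.32, limma adjusted p = 0.986). Without Instigator 4 the signalling genes had 9 of 19 higher in Instigator than in Matrigel arrays (median -0.037), Socs3 differed there by 0.11 and Cbl by -0.90. Without Matrigel 3 Pik3r1 differed by -0.47 there.

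Of 9 growth factor target genes, 4 were higher in Instigator than in Matrigel arrays (median -0.02), 6 in Non-instigator than in Matrigel arrays (median 0.04) and 2 in Instigator than in Non-instigator arrays (median -0.07). Without Instigator 4 the last count was 4 of 9 (median -0.021). The immediate early factor Fos differed by 0.70 between Instigator and Matrigel (SE 0.56) and by 0.58 between Non-instigator and Matrigel (SE 0.56), with an SD of 1.14 within the Instigator arrays. Among 18 granulocyte transcription factors, 12 were higher in Instigator than in Matrigel arrays (median 0.05), 9 in Non-instigator than in Matrigel arrays (median -0.01) and 12 in Instigator than in Non-instigator arrays (median 0.07). Cebpd, a C/EBP factor of later myeloid cells, differed by 0.48 between Instigator and Matrigel (SE 0.17, limma adjusted p = 0.439). Spi1, which encodes PU.1, differed by 0.29 (SE 0.15), and Klf4 differed by 0.52 between Instigator and Non-instigator (SE 0.17, limma adjusted p = 0.813). Without Matrigel 3 Spi1 differed by 0.16 between Instigator and Matrigel, and 9 of the 18 transcription factors were higher there (median 0.048).

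Genes for calprotectin receptors, their adaptors and the phagocyte oxidase had 7 of 15 higher in Instigator than in Matrigel arrays (median -0.03), 9 of 15 in Non-instigator than in Matrigel arrays (median 0.06) and 7 of 15 in Instigator than in Non-instigator arrays (median -0.0041). The adaptor Myd88 differed by 0.37 between Instigator and Matrigel (SE 0.15, limma adjusted p = 0.442), while Bsg, a membrane protein that binds S100a9, differed by -0.48 (SE 0.27, limma adjusted p = 0.541). Tlr4 differed by -0.12 (SE 0.18) and Ager by 0.05 (SE 0.12) in the same comparison. Other genes of the S100 list had 4 of 12 higher in Instigator than in Matrigel arrays (median -0.09), 6 of 12 in Non-instigator than in Matrigel arrays (median 0.00096) and 4 of 12 in Instigator than in Non-instigator arrays (median -0.02). S100a10 differed by -0.23 between Instigator and Non-instigator (SE 0.13) and by 0.17 between Non-instigator and Matrigel (SE 0.13). S100pbp, which encodes a protein that binds an S100 protein and is no S100 gene itself, differed by -0.48 between Instigator and Matrigel (SE 0.14, limma adjusted p = 0.439). Without Instigator 4, between Instigator and Matrigel Bsg differed by -0.16 and Myd88 by 0.23, the calprotectin receptor list had 9 of 15 higher (median 0.022), and the S100 list 6 of 12 (median -0.00081). Between Instigator and Non-instigator S100a10 then differed by -0.12, and 6 of 12 genes of the S100 list were higher (median -0.015). Without Matrigel 3 Tlr4 differed by 0.099 between Instigator and Matrigel, and S100a10 by 0.058 between Non-instigator and Matrigel.

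**Figure D4:**
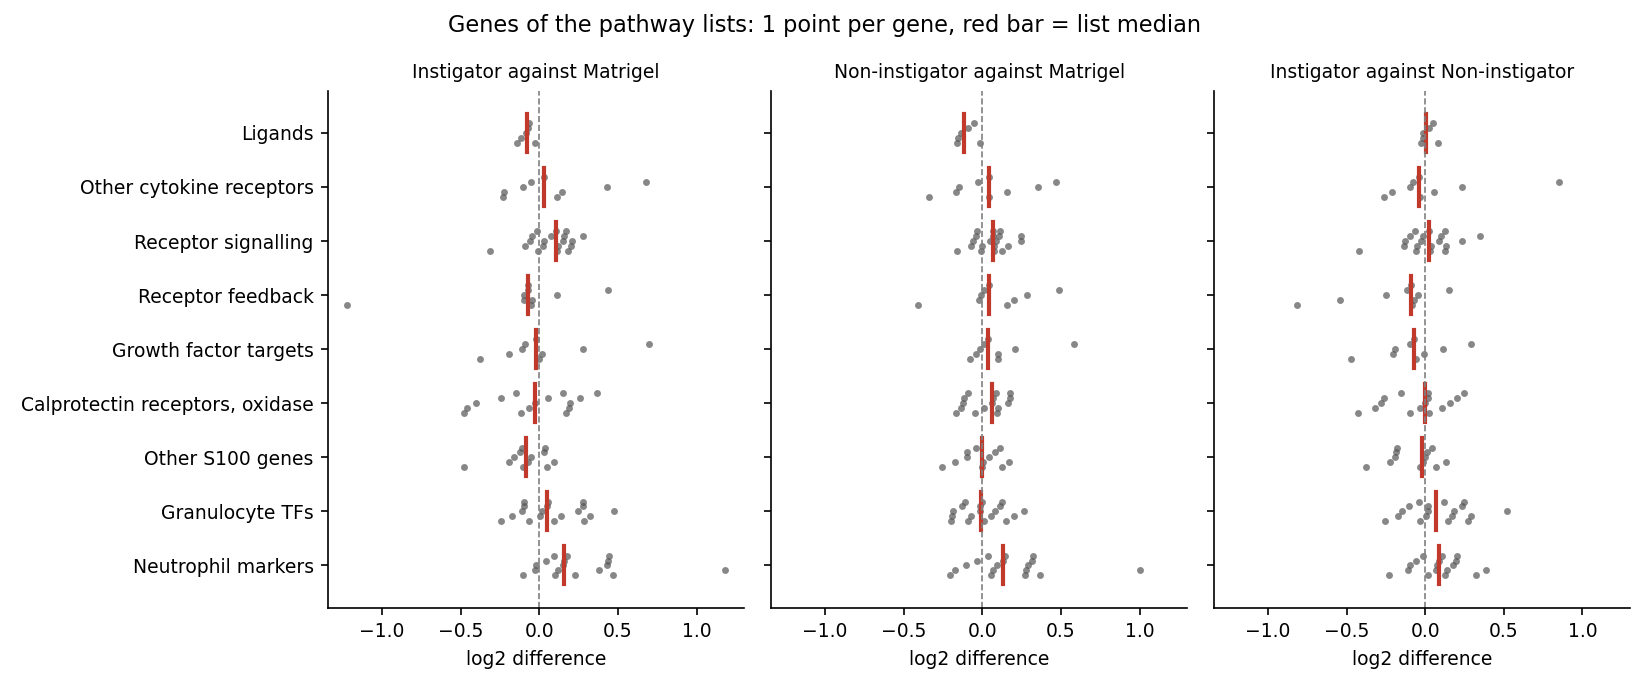
Log2 difference (x axis) of each measured gene, 1 point per gene, in 8 pathway lists and the neutrophil marker list, with the list median as a red bar, with 1 panel for each tumour group against Matrigel and 1 for Instigator against Non-instigator. List medians lie between -0.11 and 0.16, and the neutrophil markers have the highest median of these 9 lists for each tumour group against Matrigel.

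Neutrophil markers lay higher in the tumour groups beside the small S100a8 and Csf3r differences. Of 17 measured markers, 14 were higher in Instigator than in Matrigel arrays (median 0.16), 13 in Non-instigator than in Matrigel arrays (median 0.13) and 12 in Instigator than in Non-instigator arrays (median 0.08). Among all genes the shares higher were 45.9%, 38.3% and 58.2% in the same order. The mean log2 intensity of the markers ran from 11.18 to 11.35 in Instigator, 10.94 to 11.33 in Non-instigator and 10.78 to 11.14 in Matrigel arrays, so that the Instigator arrays lay above all Matrigel arrays. The stefin gene Stfa3 differed by 1.18 between Instigator and Matrigel (SE 0.34) and by 1.00 between Non-instigator and Matrigel (SE 0.34), the formyl peptide receptor gene Fpr2 by 0.47 between Instigator and Matrigel (SE 0.15), and the collagenase Mmp8 by 0.44 (SE 0.14), each with a limma adjusted p of 0.439 for Instigator against Matrigel. The primary granule enzyme Mpo, at 13.21 ± 0.09 in Instigator arrays and 13.12 ± 0.16 in Matrigel arrays, differed by 0.09 (SE 0.12). Markers of other cell types went both ways for Instigator against Matrigel, with none called. The median was 0.48 over 7 basophil and mast cell markers, all 7 of them higher, 0.14 over 5 eosinophil markers and 0.10 over 11 monocyte and macrophage markers. It was -0.49 over 9 B cell markers, -0.41 over 6 plasma cell markers, -0.28 over 8 T cell markers, -0.16 over 7 NK cell markers and -0.66 over 9 dendritic cell markers. Without Instigator 4 and Matrigel 3 the neutrophil median was 0.15, the basophil and mast cell median 0.19 and the eosinophil median -0.16. For Non-instigator against Matrigel, basophil and mast cell (0.38), eosinophil (0.32), NK cell (0.18) and erythroid markers (0.17) had medians above the neutrophil one. The T cell (0.04), plasma cell (0.03), monocyte and macrophage (-0.09), B cell (-0.23) and dendritic cell (-0.32) medians lay below it. Without Matrigel 3 the neutrophil, basophil and mast cell, and eosinophil medians of that comparison were 0.090, 0.20 and 0.13. The part of neutrophil content, and of these cells, in the S100a8 and Csf3r values was not tested.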

How the data were processed

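Expression was measured on Affymetrix mouse arrays, and the deposited table holds 22690 probe sets on 14 arrays as linear intensity. Per the submitters' processing notes, the authors made these intensity values with RMA (affy, R 2.11.0), which subtracts background, equalises arrays and condenses probes into sets. The options and genome build are not stated there. Median intensity per array ran from 119 to 145, and the number of arrays limits the precision. Log2 was taken with no further normalization, and 64 control probe sets were left out. Names came from the platform annotation, in which 20380 tested probe sets have 1 symbol, 691 several and 1555 none here. Listed genes are represented by the brightest probe set over all arrays (192 of 222 listed genes measured). Groups came from the sample titles. All 14 arrays entered 1 limma 3.58.1 fit (R 4.3.3; lmFit, eBayes), with Benjamini-Hochberg adjustment over 22626 probe sets and calls at an adjusted p under 0.05. The fit was tested on simulated data. Correlations used two-sided permutation tests with 100000 resamples. Replicate numbers were not taken as pairs. By deviations from group means, 2 of 14 arrays correlated best with an array of their own number among the other groups. Of 13 same-numbered pairs of arrays, 5 had a correlation of deviations over 0.1. The median was 0.05 over these pairs and -0.02 over the 52 other pairs between groups. The members, lists and alternatives were chosen with earlier results of these data known. Named genes were all members, up to 4 genes of a list by size of difference in a comparison, and the 5 genes most like each of 4 members; Il3ra, Jak2, Stat3, Tlr4, Ager and Mpo fall outside this rule and were added for their role after their values were seen. Promoters are from RefSeq (GRCm38.p6), used for sequence and gene order alone. Plots were drawn with matplotlib 3.10.9.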

Additional observations from a re-analysis of the deposited data

Results flagged for a closer look

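The Csf2ra value of Instigator 4 at the brighter probe set, 10.43, lay far from the other 4 Instigator arrays, the nearest of which was at 8.84. The gap made up 0.827 of the range of the group, above Dixon's critical value of 0.71 for 5 samples. It was the 1 of 24 groups of values examined for the 7 probe sets and the shared set that met this criterion, and chance flags about 1 in 20 groups.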

How the results depend on the processing

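No probe set of the 6 genes passed limma's test under any alternative run: other scalings, an offset, array weights, a replicate block, Instigator 5 counted as Non-instigator, and arrays left out. At an unadjusted limma p under 0.05, the member count for Instigator against Matrigel, 1 as reported, moved. It was 3 with Instigator 5 counted as Non-instigator and 3 with median centring, beside 2916 and 2733 of 22626 probe sets. Without Instigator 4 or without Matrigel 3 it was 0 (1921 and 1574 probe sets). With Instigator 5 moved, Instigator against Non-instigator had 2 members, 0 as reported, beside 2126 probe sets, 1268 as reported. For Instigator against Matrigel, the probe sets at an unadjusted p under 0.05 were 740 higher and 1584 lower as reported, 1298 and 1198 after quantile normalization, and 1772 and 961 with arrays centred on the median. With array weights the dimmer Csf2ra set turned to -0.021 for Instigator against Matrigel, 0.0054 for Non-instigator against Matrigel and -0.026 for Instigator against Non-instigator, where Csf2rb turned to 0.13 and the shared set to 0.031. Without Instigator 4 and Matrigel 3, the dimmer Csf2ra set turned to -0.041 and Csf2rb2 to -0.11 for Instigator against Matrigel, and for Instigator against Non-instigator Csf3r turned to -0.027, Csf2rb to 0.13 and the shared set to 0.040. With the replicate number as a block, S100a9 for Non-instigator against Matrigel was -0.0035; same-numbered arrays had correlations of deviations from -0.20 to 0.27, and the block changed no call. Leaving out 1 array at a time, Instigator against Matrigel ran from -0.020 to 0.19 for the dimmer Csf2ra set, -0.30 to 0.0054 for Csf2rb and -0.14 to 0.15 for Csf2rb2. Non-instigator against Matrigel ran from -0.065 to 0.26 for the brighter Csf2ra set, -0.15 to 0.014 for the dimmer one and -0.034 to 0.038 for S100a9. Instigator against Non-instigator ran from -0.18 to 0.13 for Csf2rb, -0.034 to 0.17 for Csf3r and -0.088 to 0.040 for the shared set. The Pearson r of S100a8 with S100a9 was 0.86 without the arrays farthest from the median, which are Instigator 4 and Matrigel 3, 0.81 with arrays centred on the median, and 0.82 as deviations from group means without these arrays, a setting chosen after seeing the data. For Csf2ra with Csf2rb, r stayed negative as deviations over 14 arrays (-0.39) and with centring (-0.32). It was 0.54 without the farthest arrays, 0.71 without Instigator 4 and Matrigel 3, and 0.87 as deviations without them. For Csf2rb with Csf2rb2 the same settings gave 0.16, 0.23 and 0.052, while r was -0.56 as deviations over 14 arrays (permutation p = 0.0408, adjusted 0.163) and -0.42 with centring. For Csf3r with S100a9, r was 0.043 without the farthest arrays and 0.34 with centring, but -0.39 without Instigator 4 and Matrigel 3, -0.45 as deviations and -0.58 as deviations without them (permutation p = 0.0493, adjusted 0.0657). The cause of these changes was not tested.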
